A study of Mus musculus with 64 samples.

Results

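Microglia sorted from the brains of 24-month-old male mice were compared with microglia from 3-month-old males across all 5647 genes of the deposited table. The comparison was defined by the column names of the table and used 8 of its 64 libraries, 4 of each age, with 1 mouse per library. All 8 mice were wild-type C57BL/6J males treated with PBS, and the labels name age as what differs between the groups. The cells were isolated from perfused brains by fluorescence-activated cell sorting as live CD11b+ CD45low cells. The remaining libraries were males of 5 other ages, females of 7 ages and LPS-treated females. Males of all 7 ages (27 libraries) entered the fit, so that the groups shared 1 estimate of the spread. Of these, the 16-month males served as a comparison within the same sex. Females of 3 months (4 mice) and 24 months (3 mice), which were also wild type and PBS-treated, served as a comparison between the sexes. Each library was made from bulk RNA, so fewer cells of a type and less RNA per cell cannot be told apart.

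Microglia are the resident macrophages of the brain. In the young adult brain they keep a surveying, homeostatic state that depends on TGF-beta and is marked by receptors such as P2ry12, Tmem119 and Cx3cr1. In ageing and in neurodegeneration, microglia are known to take up disease-associated, antigen-presenting and interferon-responsive states, and small numbers of lymphocytes and myeloid cells accumulate in the aged brain.

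Promoter sequences are printed for 7 genes on which the results below turn, namely a pair of MHC class II chains (H2-Aa and H2-Eb1), a pair of chemokines (Cxcl10 and Cxcl13), the cytokine Tnf, the secreted phosphoprotein Spp1 and the homeostatic receptor P2ry12. Each is the stretch of 250 bases before the gene start in RefSeq (GRCm38.p6), written 5′ to 3′ on the strand of the gene. The windows are chr17:34287824-34288073 (minus strand) for H2-Aa, chr17:34305617-34305866 (plus strand) for H2-Eb1, chr5:92348890-92349139 (minus strand) for Cxcl10, chr5:95956689-95956938 (plus strand) for Cxcl13, chr17:35202008-35202257 (minus strand) for Tnf, chr5:104434861-104435110 (plus strand) for Spp1 and chr3:59262986-59263235 (minus strand) for P2ry12. Capitals mark matches, on either strand, to 5 short motifs, in which N is any base. They are TATAAA, the box that positions the start of transcription, CCAAT, the box bound by NF-Y, TGANTCA, the site of AP-1, AANNGAAA, the core of the interferon regulatory factor site, and GGNNTTTCC, a part of the NF-kB site.
H2-Aa: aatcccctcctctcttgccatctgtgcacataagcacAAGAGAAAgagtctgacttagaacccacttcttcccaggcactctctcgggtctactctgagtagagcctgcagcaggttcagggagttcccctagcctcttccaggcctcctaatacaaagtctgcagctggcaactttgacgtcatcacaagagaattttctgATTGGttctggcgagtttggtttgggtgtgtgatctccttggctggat
H2-Eb1: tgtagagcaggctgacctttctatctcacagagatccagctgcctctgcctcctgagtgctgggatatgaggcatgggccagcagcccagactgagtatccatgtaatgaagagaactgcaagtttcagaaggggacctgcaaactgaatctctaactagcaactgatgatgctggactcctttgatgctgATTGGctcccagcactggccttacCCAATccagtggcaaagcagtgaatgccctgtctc
Cxcl10: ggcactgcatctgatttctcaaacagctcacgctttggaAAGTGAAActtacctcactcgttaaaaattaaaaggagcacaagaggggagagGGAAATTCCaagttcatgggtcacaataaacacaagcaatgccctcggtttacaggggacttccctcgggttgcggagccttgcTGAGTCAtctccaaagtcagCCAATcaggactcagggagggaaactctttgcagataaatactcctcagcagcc
Cxcl13: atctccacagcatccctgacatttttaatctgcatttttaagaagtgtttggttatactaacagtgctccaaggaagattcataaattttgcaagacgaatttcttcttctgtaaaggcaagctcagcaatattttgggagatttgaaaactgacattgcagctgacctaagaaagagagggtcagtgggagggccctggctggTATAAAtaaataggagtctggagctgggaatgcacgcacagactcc
Tnf: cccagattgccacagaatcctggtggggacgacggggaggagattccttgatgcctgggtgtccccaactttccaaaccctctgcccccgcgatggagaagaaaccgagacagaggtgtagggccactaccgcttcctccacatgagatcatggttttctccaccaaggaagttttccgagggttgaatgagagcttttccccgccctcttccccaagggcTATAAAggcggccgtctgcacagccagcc
Spp1: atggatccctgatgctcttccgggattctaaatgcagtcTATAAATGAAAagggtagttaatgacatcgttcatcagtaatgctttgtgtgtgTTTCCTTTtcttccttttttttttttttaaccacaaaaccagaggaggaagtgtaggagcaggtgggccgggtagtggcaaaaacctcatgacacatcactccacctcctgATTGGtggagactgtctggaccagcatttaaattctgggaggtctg
P2ry12: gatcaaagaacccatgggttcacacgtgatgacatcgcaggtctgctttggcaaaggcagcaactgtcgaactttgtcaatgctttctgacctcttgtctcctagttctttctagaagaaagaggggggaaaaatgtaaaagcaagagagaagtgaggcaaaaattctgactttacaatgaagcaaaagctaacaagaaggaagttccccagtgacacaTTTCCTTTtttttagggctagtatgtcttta
A match describes the letters and is not a measured binding site. H2-Aa and H2-Eb1 each held a CCAAT match less than 60 bases before the start, which in H2-Aa lay from base −48 to base −44. Cxcl10 held 4 matches, among them an interferon regulatory factor core from base −211 to base −204 and an NF-kB match from base −158 to base −150. Cxcl13 and Tnf held a TATA match, which began at base −46 and base −29, respectively. Spp1 held a TATA match farther from the start, from base −211 to base −206, that overlapped an interferon regulatory factor core. It also held another such core from base −157 to base −150 and a CCAAT match from base −46 to base −42. P2ry12 held only an interferon regulatory factor core. Promoters were found for 4571 of the 5647 genes and for 122 of the 154 genes that rose with age. TATAAA was present in 20 of these 122 promoters (16.4%), and in 6.85% of all 4571. AANNGAAA was present in 35 of the 122 (28.7%) and in 17.0% of all, GGNNTTTCC in 16 (13.1%) and 5.29%, TGANTCA in 12 (9.84%) and 3.92%, and CCAAT in 41 (33.6%) and 36.4%. These shares are descriptions, and the lists of genes they compare differ in expression level and in other ways that were not examined.

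The deposited values are FPKM (fragments per length of transcript and per sequencing total) that the authors adjusted for batches, and they are called values below. Their sum ranged from 449121 to 523147 over the 8 mice. Read numbers are not given in the sources used here. The depth is therefore unknown and no counting error can be stated. Genes were compared on the scale of log2(value + 1) with limma, and a log2 difference below is the mean at 24 months minus the mean at 3 months on this scale, which understates the change of low genes. A gene passed when its adjusted p (Benjamini-Hochberg over the 5647 genes) was under 0.05 and its fold on that scale was over 1.5. The p-values measure the spread between mice of the same group that was left after the authors' batch adjustment. The fit does not account for that adjustment. The values of 2 mice correlated across genes with a Pearson's r between 0.946 and 0.962 at 3 months, between 0.902 and 0.976 at 24 months and between 0.896 and 0.952 from one age to the other.

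The 24-month profile differed from the 3-month profile mostly by genes that were higher in the old males. Of the 5647 genes, 161 (2.85%) passed, of which 154 (2.73%) rose and 7 (0.124%) fell. In 348 genes (6.16%) every 24-month mouse was above every 3-month mouse, and in 87 (1.54%) every 24-month mouse was below. The median log2 difference of all genes was 0.099. It became 0.0046 after median-ratio scaling and −0.012 when all libraries were scaled to 1 common total, under which 100 genes rose and 11 fell, and 97 rose and 12 fell, respectively. The share of genes that passed was 2.09% among genes with a mean value below 20 and 11.3% among those with a mean of 500 or more. The number of genes that passed depended on 3-month replicate 4, without which it was 90. Of the 8 libraries, 3-month replicates 3 and 4 held values between 0 and 1, and the other 6 held none. Among the other males, such values were found in all mice of 6 and 9 months and in 1 of 19 months, and in none of 12 or 16 months. They were thus unevenly spread over age, the sources used here do not say what they mark, and whether they follow the batches that the authors adjusted for was not tested. In a fit to the 16 male libraries without such values, which kept 2 of the 3-month mice, 40 genes passed and all of them rose, while each of the 161 genes kept its direction.

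**Figure D1:**
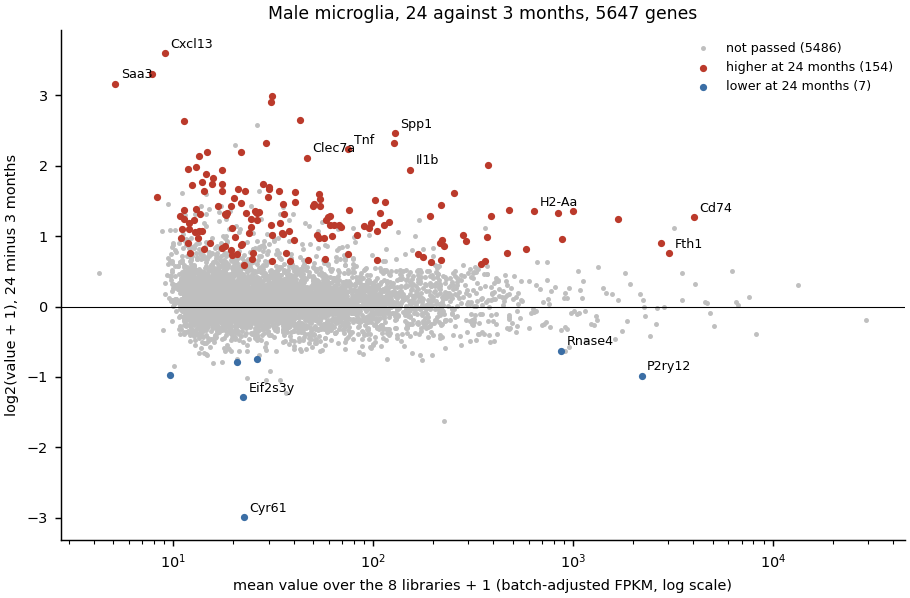
Log2 difference between 24 and 3 months (y axis) against the mean value over the 8 libraries plus 1 (x axis, log scale), with 1 point per gene. The 154 genes that rose are red, the 7 that fell are blue and the other 5486 are grey. The red points lie at all levels, and Cxcl13 and Cyr61 mark the upper and lower ends.

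The label of the cells was checked first. Microglial markers were found in both groups, most of them at high levels. Tmem119, a microglial membrane protein, ranked at place 28 of all genes at 3 months and at place 36 at 24 months, Csf1r at 20 and 26, and Trem2 at 46 and 53. The transcription factor gene Sall1 was at a lower level and ranked at place 822 and 1253. Of 10 microglial markers, 1 (P2ry12) fell and none rose. Their summed value was 22444 to 24997 in the 3-month mice and 16526 to 18587 in the 24-month mice, with no overlap.

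Markers of other leukocytes were also present, and some of the neutrophil, monocyte, and T and NK cell markers rose. Over all genes 2.73% rose. The summed value of 21 measured neutrophil markers was 3138, 4985, 4995 and 2998 in 3-month replicates 1 to 4 and 5978, 11263, 8587 and 10909 in 24-month replicates 1 to 4, and 10 of the 21 rose. The granule protein gene Ngp had values of 394, 542, 609 and 319 at 3 months and 654, 1818, 1007 and 1372 at 24 months (adjusted p = 0.0312, limma). The alarmin gene S100a9 had values of 433, 717, 734 and 400 at 3 months and 1157, 1452, 1409 and 1683 at 24 months (adjusted p = 0.00273, limma). Neutrophil markers were thus present at both ages, and the ages did not overlap in their sum. Of 9 monocyte markers 5 rose, among them the surface protein gene Ly6c2, from 40.8 ± 10.2 to 110 ± 39.9 (SD, n = 4), and the summed values were 304 to 476 at 3 months and 541 to 968 at 24 months. The 4 measured of 19 T and NK cell markers all rose, and their sum was 48 to 78 in the young mice and 205 to 507 in the old. The table held only genes that averaged at least 10 over all libraries. Cd3g and Ms4a4b had means of 4 and 7 at 3 months and 23.5 and 34.5 at 24 months. Markers that are low at all ages are therefore absent, and 4 of 4 says little about the whole list. The 12 markers of border-associated macrophages, the macrophages of the meninges and vessels, gave no gene that passed, with overlapping sums of 750 to 1075 and 487 to 947. Sums also overlapped for B cell, astrocyte, oligodendrocyte, endothelial, choroid plexus and erythroid markers, and no neuronal marker was in the table. Of the 5 measured endothelial and mural markers 1 rose, Ly6a, with values of 21, 12, 8 and 11 and then 62, 38, 18 and 28 (adjusted p = 0.0185, limma). The endothelial sum was mostly Bsg (means 422 and 369) and the oligodendrocyte sum mostly Trf (1355 and 1243), so these sums say little about the other members. Jchain, a plasma cell gene, had values of 3, 6, 7 and 2 at 3 months and 3, 67, 72 and 42 at 24 months and did not pass (adjusted p = 0.126, limma). Of 11 B and plasma cell markers 2 were measured. The other, Cd79b, had values of 48, 44, 38 and 36 and then 27, 27, 35 and 28 and did not pass (adjusted p = 0.426, limma). The part of these cells in the results below was not tested. The cells had been gated on CD11b and low CD45, and how many cells of these types passed the gate was not measured in these libraries.

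**Figure D2:**
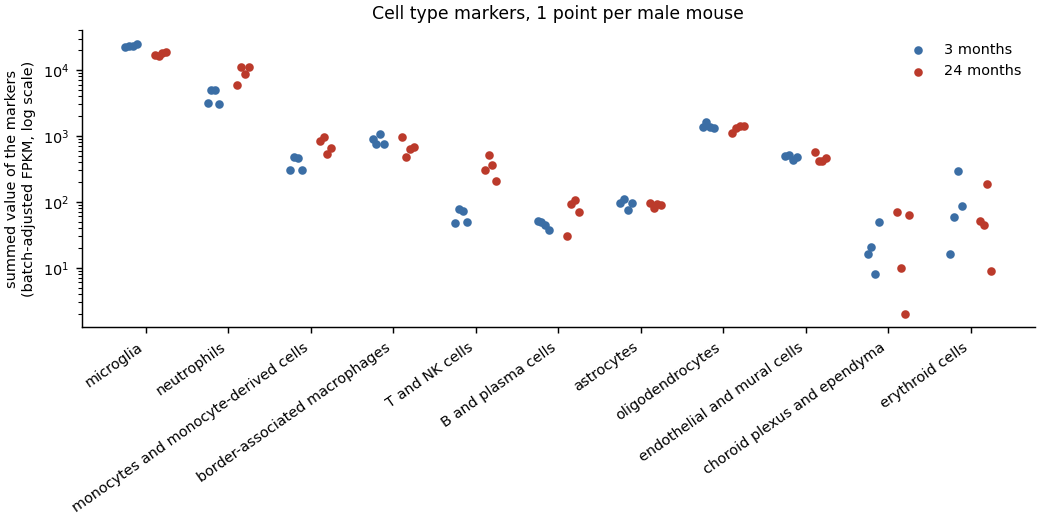
Summed value of the measured markers of 11 cell types (y axis, log scale) in each of the 4 males of 3 months (blue) and the 4 of 24 months (red). The 2 ages are apart for microglia, neutrophils, monocytes, and T and NK cells, and overlap for the other 7 types.

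Some genes of the disease-associated state rose. This state is a lipid-handling and phagocytic programme described in models of amyloid disease. Of 27 measured genes 11 rose (40.7%, beside 2.73% of all genes) and none fell. Their median log2 difference was 0.56, beside 0.10 over all genes. The beta-glucan receptor Clec7a (chr6:129461591-129472779) had values of 15, 14, 21 and 15 at 3 months and 78, 99, 48 and 76 at 24 months, a log2 difference of 2.12 (SE 0.283, adjusted p = 6.74e-05, limma). The lowest old mouse was above the highest young mouse. Spp1 (osteopontin, chr5:104435118-104441050) had values of 20, 41, 29 and 35 at 3 months and 371, 344, 50 and 133 at 24 months, a log2 difference of 2.46 (SE 0.481, adjusted p = 0.00225, limma). The old mice differed widely in Spp1, and the lowest of them was close to the young ones. The cysteine protease inhibitor Cst7 (chr2:150570415-150578944) had values of 7, 14, 9 and 4 at 3 months and 88, 30, 41 and 32 at 24 months. The receptor Axl (chr7:25757273-25788705) had values of 15, 14, 10 and 11 at 3 months and 40, 84, 25 and 35 at 24 months. Neither gene overlapped between the ages, and both passed (adjusted p = 0.000631 and 0.00171, limma). The others that rose were Lgals3 (galectin-3), Capg, Lilrb4a, Cybb, Cd52, Lyz2 and Fth1. Lgals3 also stands among the monocyte markers. Trem2, the receptor on which the disease-associated state depends, had means of 1084 ± 177 and 1017 ± 244 (SD, n = 4) and did not pass (adjusted p = 0.892), and the lipid carrier Apoe had means of 5157 and 7322 and did not pass (adjusted p = 0.625, limma). The count stayed at 11 without 3-month replicate 4 and without 24-month replicate 2, and became 3 in the 16 libraries without values between 0 and 1.

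**Figure D3:**
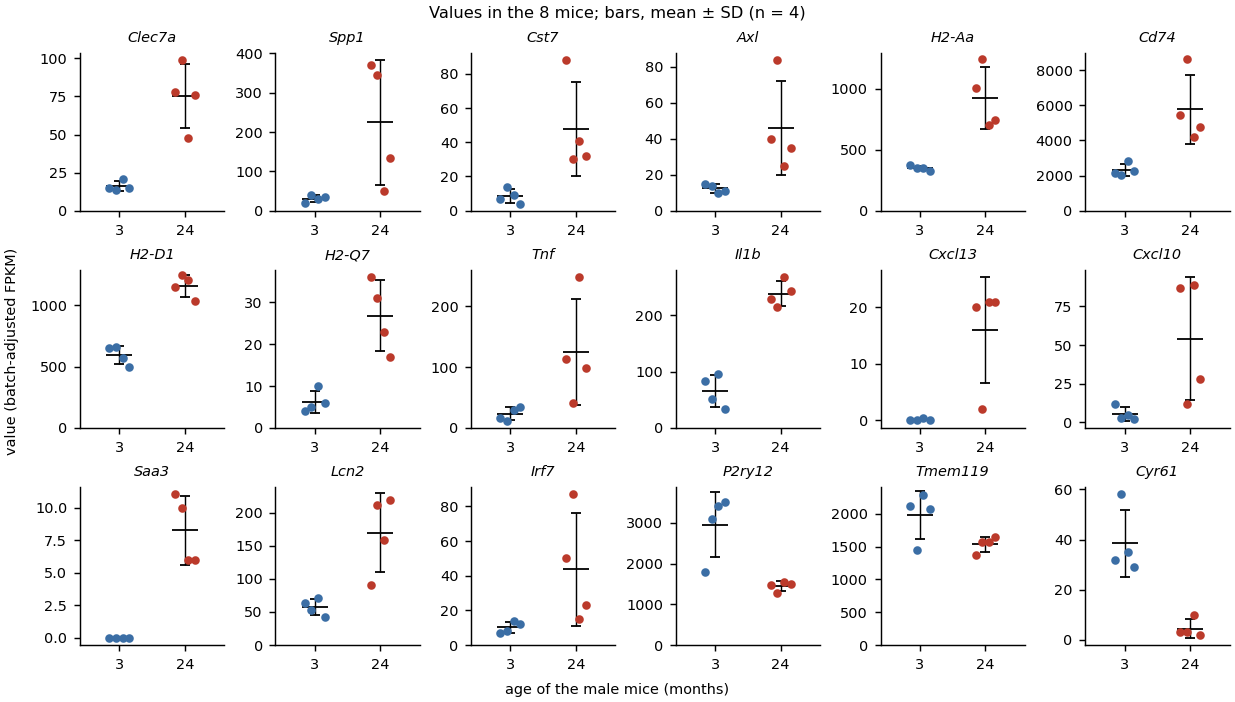
Values (y axis, batch-adjusted FPKM, linear) of 18 genes in the 4 males of 3 months (blue) and the 4 of 24 months (red), with black bars for the mean and SD. Among the genes that passed, the ages overlap only in Cxcl10. Spp1, Tnf, Cxcl10 and Irf7 spread widely among the old mice, and Tmem119 did not pass.

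Some MHC class II genes rose. Class II molecules present peptides to CD4+ T cells and are made at low levels by young microglia. Of 11 measured genes 4 rose (36.4%, beside 2.73% of all genes), and the median log2 difference was 0.71. The alpha chain gene H2-Aa (chr17:34282744-34287823), whose promoter is printed above, had values of 376, 350, 353 and 327 at 3 months and 1006, 1248, 705 and 742 at 24 months, a ratio of 2.63 and a log2 difference of 1.36 (SE 0.166, adjusted p = 5.2e-05, limma). The beta chain gene H2-Eb1 (chr17:34305867-34316674) had values of 320, 256, 245 and 227 at 3 months and 798, 868, 546 and 545 at 24 months. The invariant chain gene Cd74 had values of 2157, 2016, 2824 and 2280 at 3 months and 5462, 8629, 4204 and 4738 at 24 months. In H2-Aa, H2-Eb1, Cd74 and the beta chain gene H2-Ab1 the ages did not overlap, and 24-month replicate 2 was the highest of the 8 mice. These 4 genes passed in every alternative fit that was run, including the 16 libraries without values between 0 and 1. Class II genes are also made by B cells, whose markers had sums of 51, 50, 45 and 38 at 3 months and 30, 94, 107 and 70 at 24 months, and by monocyte-derived cells, of whose 9 markers 5 rose. In the B cell sums 24-month replicate 1 was below the young mice and the other 3 were above them. These sums held only 2 of 11 listed markers, Jchain and Cd79b. Cd79b was lower in every old mouse than in every young one, so the higher sums came from Jchain. The part of these cells in the class II genes was not tested. The peptide-loading chaperone gene H2-DMa had means of 155 and 208 and did not pass.

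Through MHC class I presentation cells show peptides to CD8+ T cells. Of 19 measured genes of this presentation 4 rose (21.1%, beside 2.73% of all genes) and none fell. H2-D1 (chr17:35262730-35267499) had values of 650, 659, 572 and 498 at 3 months and 1149, 1246, 1204 and 1036 at 24 months, a log2 difference of 0.97 (SE 0.16, adjusted p = 0.00061, limma). H2-K1 had a ratio of 1.74 and the peptide transporter gene Tap1 a ratio of 2.63. H2-Q7, a class Ib gene, had values of 4, 5, 10 and 6 at 3 months and 36, 31, 23 and 17 at 24 months. The class I genes are closely alike in sequence, so the division of reads among H2-D1, H2-K1 and H2-Q7 is uncertain. B2m, the light chain shared by all class I molecules, had means of 3631 and 4568 and did not pass (adjusted p = 0.32, limma). In the 16 libraries without values between 0 and 1, 1 of the 19 genes passed.

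Chemokine genes differed in direction, and those that passed were higher in the old mice. Of 14 measured chemokines 6 rose (42.9%, beside 2.73% of all genes), and the median log2 difference was 0.80. The 6 were Cxcl13, Cxcl10, Ccl5, Ccl4, Ccl3 and Cxcl16. The B cell attractant Cxcl13 (chr5:95956951-95961068) was listed at 0 in 3 of the young mice and at 0.42 in the fourth, and had values of 20, 2, 21 and 21 in the old mice (adjusted p = 0.000124, limma). Cxcl13 was thus near 0 at 3 months and clearly above it in 3 of the 4 mice at 24 months. The interferon-induced chemokine Cxcl10 (chr5:92346638-92348889) had values of 12, 3, 5 and 2 at 3 months and 87, 12, 89 and 28 at 24 months, and the highest young mouse equalled the lowest old one (adjusted p = 0.0463, limma). The inflammatory chemokine Ccl4 (chr11:83662584-83664683) had values of 107, 225, 101 and 85 at 3 months and 545, 256, 1404 and 282 at 24 months, and the related chemokine Ccl3 had means of 112 and 392. In Ccl4 a single old mouse, replicate 3, was far above the rest. The monocyte attractants Ccl2 and Ccl7 had lower means at 24 months (241 and 153 for Ccl2, 345.5 and 107 for Ccl7) and did not pass. Ccl7 did not overlap between the ages, with values of 202, 260, 623 and 297 at 3 months and 149, 60, 130 and 89 at 24 months (adjusted p = 0.0954, limma). The count of 6 was 4 without 3-month replicate 4, 7 without 24-month replicate 2 and 1 in the 16 libraries without values between 0 and 1. Cxcl10 passed in 8 of 20 alternatives and Ccl4 in 12 of 21.

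Of 18 measured genes of the interleukin-1 and TNF systems 4 rose (22.2%, beside 2.73% of all genes). They were the cytokines Il1b and Tnf, the receptor antagonist Il1rn and the decoy receptor Il1r2. Il1b (chr2:129364570-129371139) had values of 83, 51, 96 and 34 at 3 months and 228, 215, 268 and 242 at 24 months, a log2 difference of 1.94 (SE 0.329, adjusted p = 0.000681, limma). The old mice were close to each other in Il1b. Tnf (chr17:35199381-35202007) had values of 16, 12, 30 and 34 at 3 months and 113, 41, 247 and 99 at 24 months, a log2 difference of 2.24 (SE 0.475, adjusted p = 0.00484, limma). Il1rn (chr2:24336853-24351494) had values of 3, 13, 9 and 0.66 at 3 months and 19, 119, 49 and 30 at 24 months. Thus a cytokine and 2 of its own inhibitors passed in the same direction, and neutrophils are known to express Il1r2 as well. Il1a had means of 140 and 162 and did not pass. The count of 4 was 2 without 3-month replicate 4, 3 without 24-month replicate 2 and 2 in the 16 libraries without values between 0 and 1, while Il1b and Tnf passed in all of these fits. Of 14 measured NF-kB subunits and feedback inhibitors 2 rose (14.3%). Tnfaip3 (A20, a deubiquitinase that restrains NF-kB) had values of 28, 25, 25 and 21 at 3 months and 53, 70, 120 and 48 at 24 months, and Nfkbiz, a nuclear regulator of NF-kB targets, had means of 38 and 87.2. Neither passed in the 16 libraries without values between 0 and 1.

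The list of acute inflammation and innate sensing had the largest median log2 difference of the 26 lists, 1.01. Of its 27 measured genes 10 rose (37%, beside 2.73% of all genes). Acod1 (chr14:103046977-103056573), which makes itaconate, was listed at 0, 0, 0.5 and 0 at 3 months and at 2, 26, 9 and 17 at 24 months. The acute-phase gene Saa3 (chr7:46711998-46715700) was listed at 0 in all 4 young mice and at 11, 10, 6 and 6 in the old mice, and it passed (adjusted p = 0.00055, limma). Both genes were therefore seen only in the old mice of this pair of ages, apart from the 0.5 in 1 young mouse. The C-type lectin receptor Clec4e had values of 3, 9, 11 and 3 at 3 months and 14, 27, 28 and 24 at 24 months. The siderophore-binding protein gene Lcn2 had values of 63, 53, 71 and 43 at 3 months and 91, 211, 158 and 219 at 24 months, and it is also a neutrophil marker. Slpi, Hp, Plaur, Srgn, Ccrl2 and Ccr2 made up the rest. Ccr2 is a receptor of monocytes, Hp (haptoglobin) and Slpi are secreted by neutrophils among other cells, and the neutrophil and monocyte sums above moved in the same direction as these genes. The part of those cells was not tested. In the 16 libraries without values between 0 and 1, 4 of the 27 genes passed.

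Of 44 measured interferon response genes 5 rose (11.4%, beside 2.73% of all genes), with a median log2 difference of 0.50 over the 44. The 5 were Irf7, Ifitm6, Ifi27l2a, Ifitm2 and Ifitm3. Irf7, the transcription factor that amplifies type I interferon, had values of 7, 8, 14 and 12 at 3 months and 50, 87, 15 and 23 at 24 months (adjusted p = 0.0377, limma). Old mice 1 and 2 were well above the others, and the lowest old mouse was next to the highest young one. Ifi27l2a showed a like spread, with 185, 168, 70 and 102 at 24 months against 62, 75, 45 and 46 at 3 months. Isg15 had means of 3.75 and 13 and Ifit3 of 38.2 and 73.2, and neither passed. No interferon gene passed when either 3-month replicate 4 or 24-month replicate 2 was left out.

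Genes of T and NK cells were among the largest rises. Nkg7 (chr7:43437073-43438249), a granule protein of cytotoxic lymphocytes, had values of 7, 10, 17 and 10 at 3 months and 67, 85, 89 and 51 at 24 months, a log2 difference of 2.65 (SE 0.417, adjusted p = 0.000508, limma). The chemokine receptor Cxcr6, a marker of tissue-resident lymphocytes, had a value of 2 in each young mouse and 11, 20, 26 and 17 in the old. Cd3g, a chain of the T cell receptor complex, had values of 4, 3, 7 and 2 at 3 months and 16, 36, 33 and 9 at 24 months. The cytotoxic cell chemokine Ccl5 had values of 31, 54, 41 and 34 at 3 months and 188, 342, 208 and 117 at 24 months, and the lymphocyte membrane protein Ms4a4b had 6, 11, 7 and 4 and then 36, 44, 30 and 28. In none of these 5 genes did the ages overlap. Cd3g is a T cell gene, and its values at 3 months were not 0. Genes averaging under 10 over all libraries were not in the table, so lymphocyte genes low at all ages could not appear here. The part of T and NK cells in these 5 genes was not tested.

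Receptors with inhibitory or paired functions gave 5 rises among 18 measured genes (27.8%, beside 2.73% of all genes). The 5 were Cd300ld, Lilr4b, Lilrb4a, Clec12a and Pirb. Lilrb4a had values of 69, 81, 73 and 46 at 3 months and 116, 142, 150 and 154 at 24 months, and Lilr4b had means of 10.2 and 28. The last 2 genes are near-identical neighbours, so reads may have been divided between them. Of 17 measured complement and Fc receptor genes 3 rose (17.6%), while the median log2 difference, 0.038, was below that of all genes. The activating receptor Fcgr4 (chr1:171018920-171029761) had values of 28, 21, 16 and 17 at 3 months and 47, 74, 52 and 61 at 24 months (adjusted p = 5.2e-05, limma). C3, the central complement protein, had 4, 7, 5 and 5 and then 12, 24, 13 and 13. C4b, which has a near-identical copy, had means of 6.5 and 16.8, and C1qa, the first complement component, had 4410 and 4691 and did not pass. Cybb, the catalytic subunit of the phagocyte oxidase, was the only one of 8 oxidase genes that rose (12.5%). Its means were 53.8 ± 10.8 at 3 months and 111 ± 31.1 at 24 months (SD, n = 4). In the 16 libraries without values between 0 and 1, 2 of the receptor genes and 1 of the complement and Fc receptor genes passed, and Cybb did as well.

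Of 18 measured glycolysis genes 6 rose (33.3%, beside 2.73% of all genes). Among them, lactate dehydrogenase Ldha had values of 141, 106, 140 and 110 at 3 months and 165, 217, 210 and 243 at 24 months. Triosephosphate isomerase Tpi1 had 63, 59, 41 and 59 and then 95, 92, 93 and 91. Both were higher in every old mouse than in every young one. The count of 6 glycolysis genes was 3 without 3-month replicate 4, 2 without 24-month replicate 2 and 0 in the 16 libraries without values between 0 and 1. The iron store Fth1 had values of 2278, 2384, 2212 and 2111 at 3 months and 3503, 3862, 3867 and 4011 at 24 months, a ratio of 1.7 (adjusted p = 0.00151, limma). Lcn2 was the other of the 2 iron handling genes that rose out of 11 (18.2%). Neither of the 2 passed in the 16 libraries without values between 0 and 1. The lipocalin Apod, with means of 4.25 and 19.8, was the only one of 19 lipid handling genes that passed (5.26%, beside 2.73% of all genes that rose). Of 80 cytosolic ribosomal protein genes 2 rose, among them Rplp0, a stalk protein of the large subunit. This share (2.5%) was near that of all genes (2.73%), although the median log2 difference of the 80 was 0.41. Rplp0 did not pass after either scaling. Among the cell cycle genes, cyclin D2 (Ccnd2), the cell cycle inhibitor Cdkn1a (p21) and the replication helicase subunit Mcm6 rose, 3 of 15 measured (20%). Cdkn1a, a gene linked to senescence, had values of 31, 20, 34 and 21 at 3 months and 83, 102, 89 and 45 at 24 months (adjusted p = 0.0483, limma). Of the cell cycle genes 1 passed when either 3-month replicate 4 or 24-month replicate 2 was left out, and Cdkn1a passed in 9 of 21 alternatives.

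A few families were looked at after their values were seen. Of 29 measured genes of actin and actin-binding proteins 10 rose, including the intermediate filament gene Vim that was kept in that family, Gsn, Flna and Actg1. Of 8 measured S100 genes 4 rose, and of 7 annexins 3 rose. In the other families 1 of 4 Gimap genes, 2 of 7 Ms4a genes, 1 of 4 Cd300 genes and 2 of 3 Ly6 genes rose. Over all genes 2.73% rose. These families were chosen after their values were seen, so their counts cannot test a difference from that share. Anxa2, a membrane-binding annexin, had values of 43, 31, 41 and 24 at 3 months and 66, 101, 81 and 91 at 24 months. Of 24 immediate early genes, whose mRNA also rises during tissue dissociation, Dusp2 and Nr4a1 rose (8.33%) and Cyr61 fell. Neither rise passed without 3-month replicate 4, and none of the 3 passed in the 16 libraries without values between 0 and 1. Fos (1526 and 2113), Jun (492 and 712) and Egr1 (706 and 797) had higher means at 24 months and did not pass. The part of the dissociation was not tested.

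The 7 genes that fell were Cyr61, Eif2s3y, P2ry12, Tmc7, Jam2, Tfpi and Rnase4. P2ry12 (chr3:59216272-59262871), the purinergic receptor through which microglial processes sense ATP and ADP, had values of 1794, 3092, 3413 and 3514 at 3 months and 1469, 1277, 1560 and 1494 at 24 months, a log2 difference of −0.98 (SE 0.198, adjusted p = 0.00303, limma). The old mice were tightly grouped in P2ry12, and 3-month replicate 1 was the young mouse nearest to them. Among the 30 measured homeostatic genes, P2ry12 was the only one that passed, while 0.124% of all genes fell. In 8 of the 30 every old mouse was below every young one, beside 1.54% of all genes. Tmem119 had values of 2122, 1445, 2291 and 2075 at 3 months and 1375, 1565, 1575 and 1639 at 24 months and did not pass (adjusted p = 0.467, limma). Cx3cr1, the fractalkine receptor, had means of 1410 ± 245 and 1225 ± 126 (SD, n = 4), and Sall1, a transcription factor of microglial identity, had 85 ± 19.8 and 62.8 ± 15.8. The median log2 difference of the homeostatic list was −0.23, and it was −0.21 without 3-month replicate 4. P2ry12 lost its call in the 16 libraries without values between 0 and 1, where its log2 difference was −0.70.

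Cyr61, a matrix-associated protein induced by YAP, had values of 32, 58, 35 and 29 at 3 months and 3, 3, 10 and 2 at 24 months, a log2 difference of −2.99 (SE 0.657, adjusted p = 0.0069, limma). This was the largest fall, and the ages were far apart. Rnase4, a secreted ribonuclease whose locus overlaps that of Ang, had values of 1026, 1077, 935 and 1196 at 3 months and 771, 524, 788 and 681 at 24 months. The coagulation inhibitor Tfpi had 32, 34, 29 and 33 and then 19, 15, 22 and 19, and the junction protein Jam2 and the channel-like protein Tmc7 had ratios of 0.559 and 0.468. Eif2s3y, a translation factor gene on the Y chromosome, had values of 27, 32, 31 and 32 at 3 months and 8, 11, 14 and 16 at 24 months (adjusted p = 0.0298, limma). It was the only Y-linked gene of the table. In the 37 female libraries, which have no Y chromosome, its values after the batch adjustment were 4 to 41 with a median of 10, so that values of this size also occurred without the gene. Females of 3 and 24 months had means of 27.8 and 13.3, a log2 difference of −1.29, beside −1.29 in males. A fall of this size was thus also listed in mice that lack the gene. Of the genes that were lower without passing, Clec4n, Lyve1, Tmem204, Gbp7, Inka1, Hpgd and Klhdc8b had no overlap between the ages, with log2 differences from −1.23 to −0.66. Lyve1, a marker of border-associated macrophages, had values of 30, 21, 46 and 25 at 3 months and 20, 12, 13 and 12 at 24 months.

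Several lists gave no gene that passed. Of all genes 2.85% passed, so at that share a short list can be without a passing gene. They were the 44 lysosomal genes (median log2 difference 0.092), the 44 proteasome genes (0.091), the 82 genes of the respiratory chain and ATP synthase (0.16), the 68 mitochondrial ribosomal protein genes (0.061), the 31 heat shock and ER chaperones (−0.11), the 21 histone and chromatin enzymes (0.10) and the 8 genes of glucocorticoid and stress restraint (0.21). Among the lysosomal proteases, Ctsd had means of 4572 and 4751 and Ctsb 2026 and 2280. Of the 14 genes of TGF-beta and matrix-associated signalling only Cyr61 passed.

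**Figure D4:**
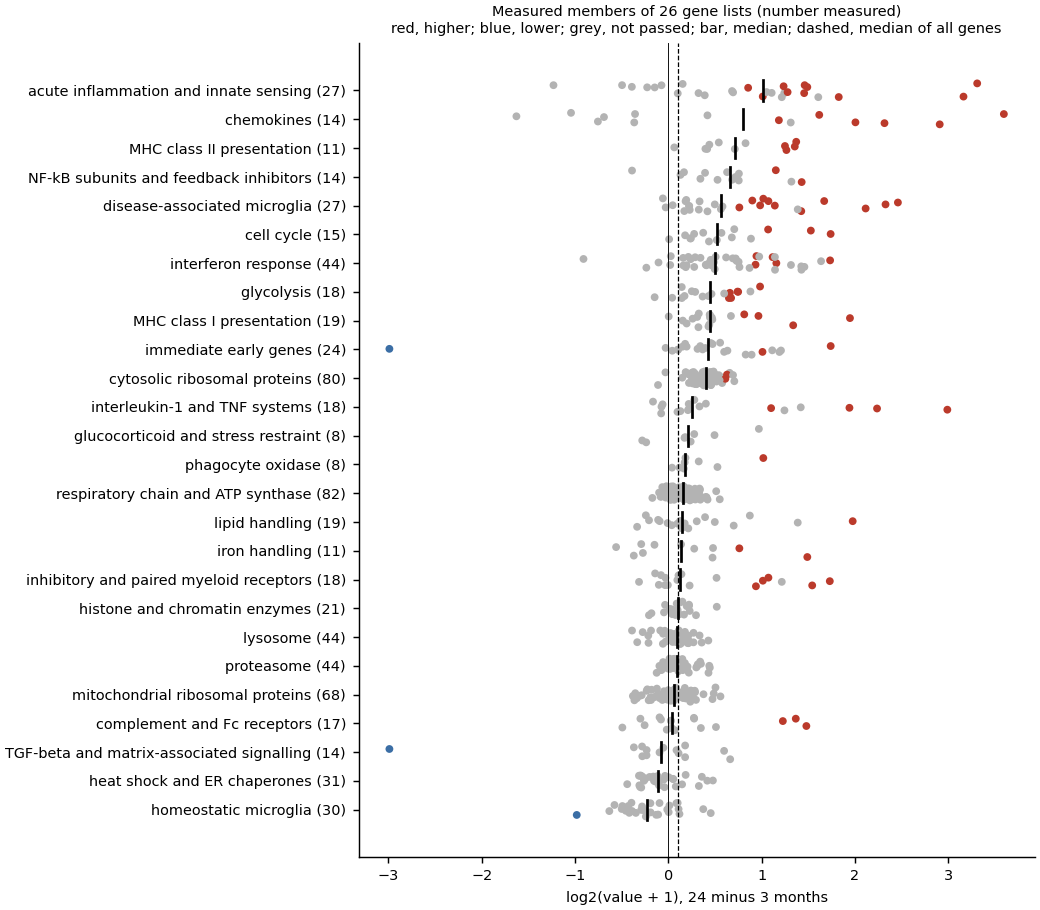
Log2 difference between 24 and 3 months (x axis) of each measured member of 26 gene lists (rows, ordered by their medians). Red points rose, blue points fell and grey points did not pass, black bars are the medians and the dashed line is the median of all genes, 0.10. Acute inflammation lies at the top with a median of 1.01 and homeostatic microglia at the bottom with −0.23.

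The 4 old mice were not alike. Of the 154 genes that rose, 86 (55.8%) were highest in 24-month replicate 2, which was the highest of the 4 in 24.5% of all genes. That mouse also had the highest 24-month sums of neutrophil (11263), monocyte (968), and T and NK cell markers (507). Its microglial sum, 16526, was the lowest of the 4. The part of those cells in the 86 genes was not tested. Replicate 1 was the lowest in 63 of the 154, and in 1630 of all 5647 genes. The median SD of these 154 genes on the log2 scale was 0.358 at 3 months and 0.399 at 24 months. Over all genes it was 0.234 and 0.256, so a slightly larger spread at 24 months was not particular to the 154. Replicate 1 was highest in Spp1 and Cst7 and lowest in the neutrophil markers, replicate 2 was highest in Axl, H2-Aa and Irf7, and replicate 3 was highest in Tnf and Ccl4. Without replicate 2 of the 24-month mice 117 genes passed.

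Ages between 3 and 24 months placed the 24-month values. Of the 154 genes, 104 (67.5%) had their highest male mean at 16 months, 38 (24.7%) at 24 months, 9 at 12 months and 3 at 19 months, while 14.9% of all genes were highest at 16 months. Clec7a means were 16.2, 15.2, 15, 45.5, 78, 32.4 and 75.2 at the 7 male ages in ascending order, of which the fifth is 16 months. H2-Aa means were 351.5, 346, 436, 704, 956, 573 and 925 at these ages. Both were close to the 24-month level at 16 months and lower at 19 months. Cd74, by contrast, had its highest mean at 24 months, 5758 beside 4996 at 16 months.

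Between 24 and 16 months 13 genes (0.23%) passed, 10 lower (0.177%) and 3 higher (0.0531%) at 24 months. Those lower were Saa3, Acod1, Hcar2, Il1r2, Clec4e, Slpi, Il1f9, Hp, Plaur and Srgn. Their log2 differences between 24 and 3 months were 0.86 (Srgn) to 3.31 (Acod1). Acod1 had values of 60 to 140 in the 16-month mice and 2 to 26 in the 24-month mice, a log2 difference of −2.90 (SE 0.582, adjusted p = 0.03, limma). Il1r2 had values of 42 to 83 at 16 months and 7 to 19 at 24 months, and Slpi 117 to 217 and 33 to 60. The ages did not overlap in these 3 genes. Saa3 had values of 10, 78, 98 and 145 at 16 months in ascending order and 6 to 11 at 24 months. Those higher at 24 months were the lectin Clec10a, the integrin subunit Itgav and the Arf GTPase-activating protein Acap2, none of which passed between 24 and 3 months. Leaving out 1 mouse gave 3 to 11 genes, with 3 when 24-month replicate 1 or 4 or 16-month replicate 2 or 3 was left out, and after median-ratio scaling 10 genes were lower and none was higher. The comparisons with 16 and with 3 months share the 24-month mice.

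**Figure D5:**
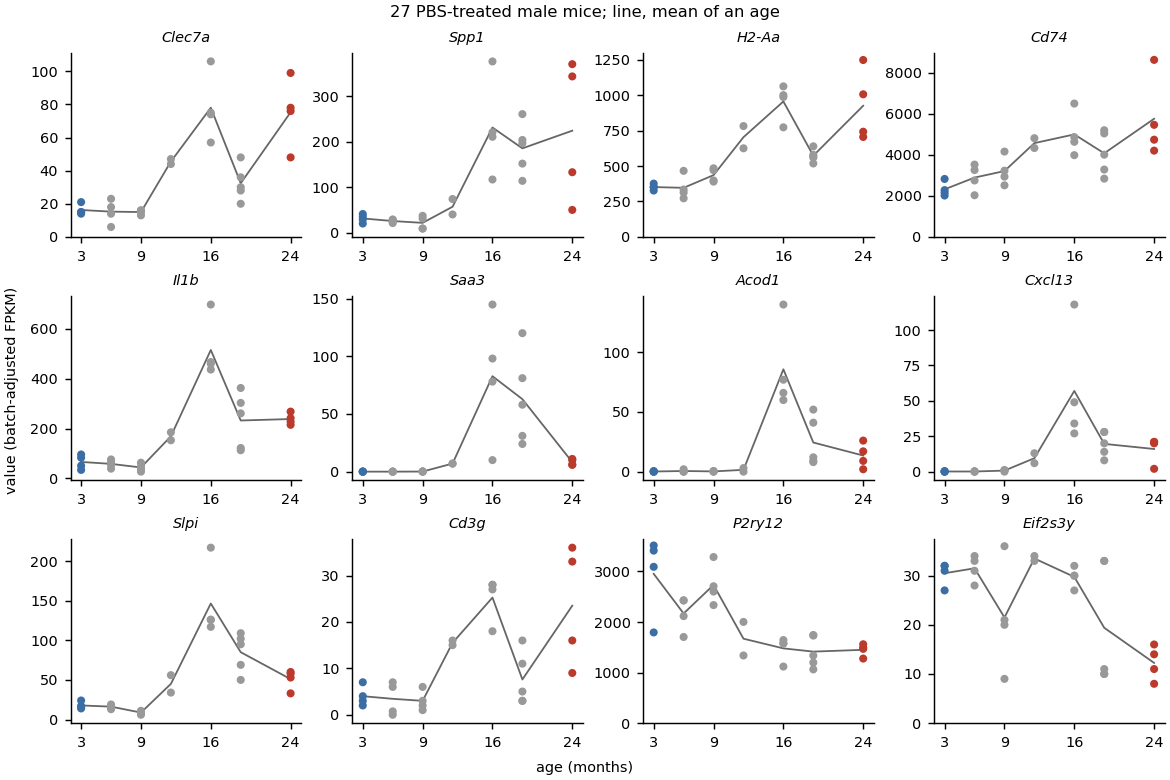
Values (y axis, batch-adjusted FPKM, linear) of 12 genes in the 27 PBS-treated males by age in months (x axis), with 3 months in blue, 24 months in red, the other ages in grey and a line through the mean of each age. Acod1, Saa3, Cxcl13, Slpi and Il1b are highest at 16 months, and Eif2s3y at 24 months lies below the 3-month values.

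The age difference was then compared with that of females, which were measured at 3 and 24 months in the same table, by the interaction of age and sex in a fit to 43 libraries of 6 shared ages. A single gene passed (0.0177%), the neutrophil granule enzyme Mpo, while 398 genes had both an unadjusted p under 0.05 and a fold above 1.5. Mpo had values of 1, 11, 2 and 6 in 3-month males and 4, 57, 17 and 56 in 24-month males, and 37, 23, 116 and 25 in 3-month females and 0, 0 and 5 in 24-month females. The age difference in males minus that in females was 6.79 on the log2 scale (SE 1.29, adjusted p = 0.0312, limma). The count of genes was 0 with a pseudocount of 5, after median-ratio scaling, with a robust variance and without 24-month male replicate 2, 3 or 4, among other mice, and it ranged from 0 to 3 when 1 mouse was left out. The male mice alone did not pass in Mpo (adjusted p = 0.178), and the means of the sexes differed in opposite directions. Elane, another neutrophil granule enzyme, had a difference of 5.22 (95% interval 2.95 to 7.49, adjusted p = 0.109).

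For the disease-associated and antigen presentation genes named here the difference between the sexes did not pass. Axl had log2 differences of 1.67 in males and 1.67 in females, with a 95% interval of the difference from −1.01 to 1.01. Cd74 had 1.27 and 1.32 (interval −0.73 to 0.62), H2-D1 0.97 and 1.18 (interval −0.71 to 0.28) and P2ry12 −0.98 and −0.81 (interval −0.81 to 0.47). Tap1 had 1.34 and 0.31, with an interval from 0.22 to 1.84 that leaves out 0 (adjusted p = 0.495, limma). The intervals of Axl, Cd74, H2-D1 and P2ry12 contain 0, which does not show that the sexes are alike. Spp1 had 2.46 in males and 4.31 in females (interval −3.56 to −0.14, adjusted p = 0.538, limma). Several inflammatory genes had larger log2 differences in males, with 3.31 in males and −0.03 in females for Acod1 (interval 1.24 to 5.44), 1.94 and 0.67 for Il1b (interval 0.37 to 2.17), 1.83 and 0.03 for Clec4e (interval 0.48 to 3.12) and 1.49 and −1.17 for Lcn2 (interval 0.47 to 4.84). These intervals leave out 0, but none of the differences passed after adjustment over all genes (adjusted p between 0.426 and 0.508, limma). Cyr61 had −2.99 and −0.13 (adjusted p = 0.357, limma).

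Of the 64 named genes that passed between 24 and 3 months, 18 passed in every alternative in which they were tested. They were Acod1, Ccnd2, Cd300ld, Cd74, Clec4e, Clec7a, Cxcl13, Cybb, Fcgr4, H2-Aa, H2-Ab1, H2-Eb1, H2-Q7, Il1b, Lilr4b, Ms4a4b, Nkg7 and Tnf. Leaving out 1 mouse took the call from between 12 and 24 of the 64, most of them without 3-month replicate 4. None of the 64 changed direction in any alternative.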

How the data were processed

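Microglial RNA of individual mice was reverse transcribed from the poly(A) tail, amplified by PCR and sequenced on the BGISEQ-500. After filtering with SOAPnuke, the authors aligned reads to mm10 (HISAT2 2.0.4) and to the coding gene set (Bowtie2 2.2.5), obtained FPKM from RSEM 1.2.12 (versions per the submitters' processing notes), adjusted all libraries for batches with ComBat_seq and removed genes averaging under 10 FPKM. The batches are not named in the sources used here. The deposited values, which are handled as scores, are adjusted FPKM that were rounded to whole numbers with few exceptions. A few gene symbols that had been turned into dates were kept as given. The values are not counts, so no count test was used and the depth is unknown.

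Values were taken as log2(value + 1) without further scaling. The 27 PBS male libraries were fitted with limma 3.58.1 (R 4.3.3), with moderated variances that follow a trend in the mean, and p-values were adjusted by Benjamini-Hochberg over all 5647 genes. The sex difference was an interaction in 43 libraries of 6 shared ages. Named genes were the 12 largest rises and up to 12 largest falls among genes that passed without overlap, if fewer then up to 8 lower genes with an unadjusted p under 0.05 and no overlap, up to 4 called members of each list, up to 6 genes of each direction in the other comparisons, and the microglial genes of the label check. Genes such as Apoe, B2m, Fos, Isg15 and Elane were named from the lists after their values were seen. The members and lists were chosen with earlier results of these data known, the ribosomal list was completed after its values were seen, and the motifs were searched in the 250 bases before the first RefSeq start of each gene. Gene positions are those of GENCODE vM21 (GRCm38), where 81 of 82 named genes were found. On simulated data of this design, 79% of genes changed by a log2 difference of 1 and 96% of those changed by 2 were called, with 5 of 5447 unchanged genes. The simulated noise was normal, independent between genes and libraries and without a batch adjustment. These rates therefore need not hold for the real values. The alternatives were pseudocounts of 0.5 and 5, a minimum mean of 50, median-ratio and total scaling, robust or untrended variances, the adjusted p alone, unadjusted p, the replicate block, other sets of libraries in the fit and leaving out each mouse. Same-numbered replicates of 3 and 24 months had residuals that correlated across genes with r of −0.098, −0.173, −0.058 and 0.073, and were not treated as pairs.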

Additional observations from a re-analysis of the deposited data

Results flagged for a closer look

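In 15 of 164 groups of 4 mice (82 named genes at 2 ages), 1 mouse lay far from the other 3 by Dixon's test at the 95% level. Groups of 4 equal values, such as Saa3 and Cxcr6 at 3 months, could not be flagged. For values that follow a normal distribution without rounding, chance alone flags about 1 in 20 groups. Here most values were rounded, and 3 equal values beside a different one are always flagged, as in Apod and Tmc7. That rate therefore need not hold. Values in single mice follow, with no explanation.

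Among the genes that rose with age, Cxcl13 was 2 in 24-month replicate 2 and 20 to 21 in the other old mice, and 0.42 in 3-month replicate 3 and 0 in the other young mice. Acod1 was 0.5 in 3-month replicate 3 and 0 in the others, Clec7a was 21 there and 14 to 15 in the others, and Ccl4 was 225 in 3-month replicate 2 and 85 to 107 in the others. Apod was 8 in 3-month replicate 2 and 3 in the others, C3 was 24 in 24-month replicate 2 and 12 to 13 in the others, and Ccnd2 was 35 in that mouse and 19 in the others.

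Among the genes with lower values at 24 months, Cyr61 was 10 in 24-month replicate 3 and 2 to 3 in the others, Tmc7 was 4 in replicate 2 and 6 in the others, and Lyve1 was 20 in replicate 1 and 12 to 13 in the others. In the 3-month mice Clec4n was 58 in replicate 3 and 47 to 48 in the others, Hpgd was 179 in replicate 3 and 192 to 194 in the others, and Klhdc8b was 23 in replicate 1 and 14 to 15 in the others. Acap2 was 26 in 3-month replicate 3 and 23 in the others. The 3-month replicate 3 held 6 of the 15 values.

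For Mpo the age difference in males minus that in females was 6.79 on the log2 scale by the interaction of age and sex (adjusted p = 0.0312, limma). Mpo did not pass in males alone (adjusted p = 0.178), and the interaction did not pass under several of the alternatives below.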

How the results depend on the processing

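In males, 161 genes passed between 24 and 3 months. The total that passed was 70 among genes with a mean of at least 50 and 105 with all PBS libraries of both sexes in the fit. It was 40 in the male libraries without values between 0 and 1 and 398 at an unadjusted p. These are totals of each fit and do not say how many of the 161 were kept. Leaving out 1 mouse gave 90 (without 3-month replicate 4) to 161. The share of higher genes was 95.7%, and 90.1% after median-ratio scaling, 89% after total scaling and 100% in the libraries without values between 0 and 1. With the replicate number as a block 167 genes passed, although the numbers do not pair the mice. The single gene of the sex difference was lost (0 genes) with a pseudocount of 5, a mean of at least 50, median-ratio scaling and a robust variance, and the count was 2 with the block, 4 with only the 4 groups compared, 398 at an unadjusted p, and 0 to 3 when 1 mouse was left out. Between 24 and 16 months the 13 genes became 7 at a mean of at least 50, 8 with only both groups in the fit, 149 at an unadjusted p, 11 with the block, and 3 to 11 when 1 mouse was left out, 3 of them without 24-month replicate 1 or 4 or 16-month replicate 2 or 3, 6 without 16-month replicate 4, 7 without 24-month replicate 2 and 8 without 16-month replicate 1. After median-ratio scaling 10 genes passed, all lower. Fits with fewer mice or fewer genes have less power or fewer tests, and other causes were not tested. With depth unknown, values near 0 have no stated limit.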
